A study of Mus musculus with 52 samples.

Results

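Entry into the cell cycle is decided late in G1. D cyclins bind the kinases CDK4 and CDK6, and the active complexes phosphorylate the retinoblastoma protein RB1, which then releases E2F transcription factors that switch on genes for DNA replication. The complexes are held back by INK4 inhibitors such as the product of Cdkn2c, which bind the kinases themselves, and by the CIP/KIP inhibitors p21, p27 and p57 (Cdkn1a, Cdkn1b and Cdkn1c). In mouse bone marrow these inhibitors and Cdk6 are known for their part in keeping haematopoietic stem cells (HSCs) quiescent or letting them leave quiescence, and D cyclins for the divisions of progenitors and red cell precursors.

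The levels of 10 genes of this switch were described in single mouse bone marrow cells: the D cyclins Ccnd1, Ccnd2 and Ccnd3, the kinases Cdk4 and Cdk6, the inhibitors Cdkn1a, Cdkn1b, Cdkn1c and Cdkn2c, and Rb1. They were chosen by symbol, as the genes of the G1 switch, among the 28786 genes of the count table, and all 10 had reads. The assay was Smart-seq2, in which each sorted cell is lysed in its own well and copied into full-length cDNA, with no molecular identifiers to count the starting molecules. All 52 libraries carry the label primed HSCs and come from C57BL/6 mice aged 6 to 8 weeks with the genotype Cd4-cre;R26Tdtomato. In these mice Cre recombinase is driven by regulatory sequence of Cd4 and can turn on a tdTomato reporter in the Rosa26 locus. Marrow was taken from femora and tibiae and its red cells were lysed, and the sources used here name no sort gate or number of animals and do not say what "primed" stands for. With no animal named, the cells form 1 sample with no replicate, so no test was made. Intervals and limits below cover only the error of counting cells within this 1 sample, and every ± gives the SD (standard deviation) between cells of a class.

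After 3 poor libraries were left out, 49 cells remained, with 85519 to 12446477 reads each and 1527 to 9624 genes with a read. They were split by the genes Klf1, an erythroid transcription factor, and Cd34, a surface protein of stem and progenitor cells. Klf1-high cells had at least 200 CPM of Klf1 (its count scaled to a common library total) and under 10 CPM of Cd34, and there were 33 of them (67.3% of the kept cells, exact 95% interval 52.5 to 80.1). Cd34-positive cells had at least 10 CPM of Cd34 and under 200 CPM of Klf1, and there were 13 (26.5%, interval 14.9 to 41.1). Cell 2 passed both limits and cells 9 and 34 passed neither. No cell lay within 2-fold of the Cd34 limit, and cells 21 and 47, both Cd34-positive, lay within 2-fold of the Klf1 limit.

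The label HSC was met by the markers of the Cd34-positive cells only in part, and not by those of the Klf1-high cells. Of 10 HSC markers, 0 reached 10 CPM in at least 50% of Klf1-high cells (summed level 0 to 1773 CPM, median 34.8), against 6 in Cd34-positive cells (439 to 2335 CPM, median 1602). All 8 erythroid markers did so in Klf1-high cells (median sum 14020 CPM), against 2 of 8 in Cd34-positive cells (2046 CPM). Klf1 is on this list (median 850 CPM in Klf1-high cells), and since it defined the classes its part in these values was set by the split. Cd34-positive cells also carried more of the 6 megakaryocyte markers, with a median sum of 47.2 CPM in Klf1-high cells and 680 CPM in Cd34-positive cells, and of the 6 neutrophil and monocyte markers, at 1.43 CPM in Klf1-high and 777 CPM in Cd34-positive cells. Of 5 T cell markers, Cd3e, Trbc2, Cd4 and Bcl11b were at 0 in every cell of both classes. Cell 9 summed 7741 CPM of B cell markers and also 9495 CPM of erythroid markers, with Gata1, Epor, Tfrc and Tspo2 at 0. Cell 34 summed 46058 CPM of neutrophil and monocyte markers. Cells 6 and 13, both Klf1-high, had profiles that correlated at 0.919 where the next closest pair reached 0.710, so they may not be independent. The classes also differed in depth and in cycling. Median reads were 2887970 in Klf1-high and 835415 in Cd34-positive cells, and Mki67, a gene transcribed in cycling cells, reached 100 CPM in 28 of 33 Klf1-high cells (363 ± 292 CPM) and in 2 of 13 Cd34-positive cells (32.6 ± 66.2 CPM). The part of depth, of other lineages' genes and of cycling in the differences between classes was not tested beyond the values given beside each result.

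Of the 9 genes measured well enough to compare (a mean of at least 5 CPM over the cells of both classes), 0 were at least 2-fold higher in Klf1-high than in Cd34-positive cells, where 20.6% of all 9831 genes compared were. At least 2-fold lower were 6 of the 9 (Ccnd1, Ccnd2, Ccnd3, Cdkn1a, Cdkn1b and Rb1), where 24.2% of all genes were. Cdk4, Cdk6 and Cdkn2c lay within 2-fold, and Cdkn1c was under the limit. The median log2 ratio of the 9 genes was -1.31 and that of all genes -0.04. The ratio was taken between mean CPM + 1, and the ranges over cells of all 9 genes overlapped between the classes. When only cells with Mki67 under 100 CPM were compared (5 Klf1-high and 11 Cd34-positive cells, a choice made after seeing the data), 0 were higher and 4 lower, where 20.2% of all genes were higher and 29.7% lower. Among these cells Ccnd2, Ccnd3 and Cdkn1b no longer reached 2-fold, at log2 ratios of -0.70, -0.64 and -0.88. The 4 lower genes were Ccnd1, Cdkn1a, Rb1 and Cdkn2c. Cdkn2c stood at -4.5 among these cells, and at -0.37 over all cells of both classes.

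**Figure D1:**
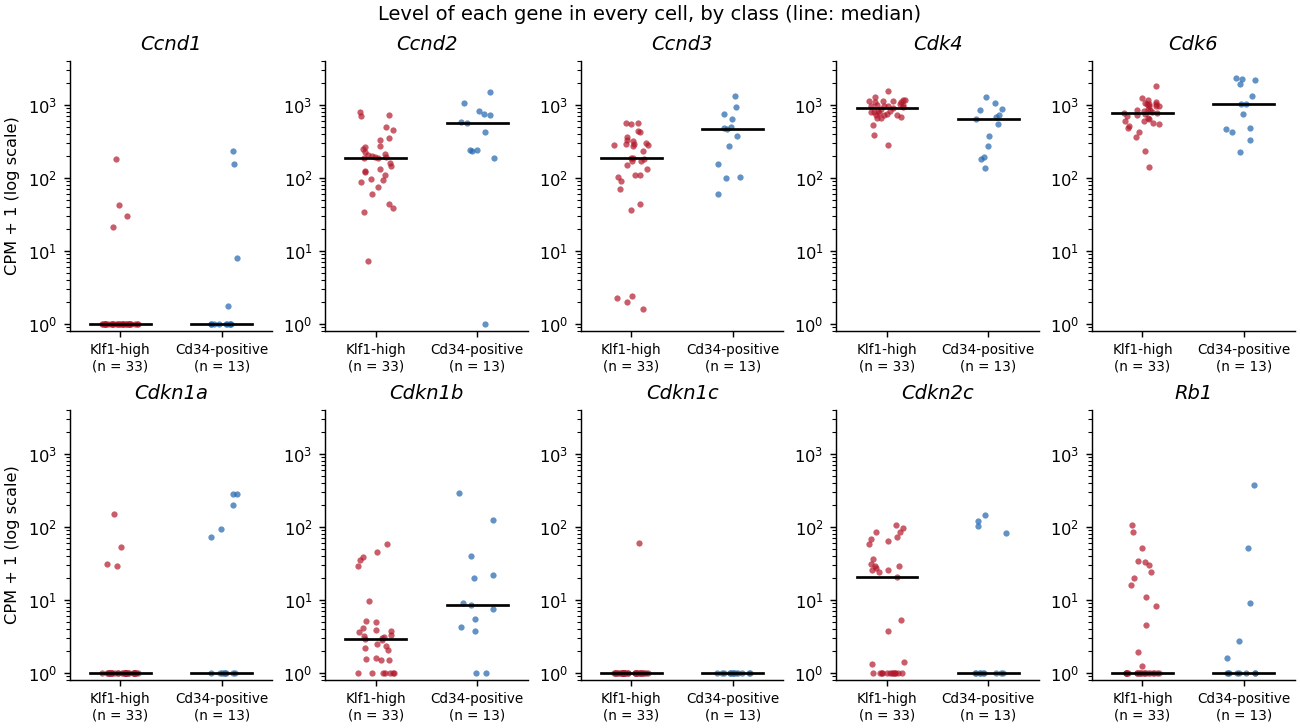
CPM + 1 of each of the 10 genes (vertical axis, log scale) in every Klf1-high cell (33 red points) and every Cd34-positive cell (13 blue points), with the median as a line. Cdk4 and Cdk6 were above 100 CPM in every cell of both classes, while Ccnd1, Cdkn1a, Cdkn1c and Rb1 had a median of 0 in both.

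Among the D cyclins, Ccnd2 and Ccnd3 were carried by nearly every cell and Ccnd1 by few. Both Ccnd2 and Ccnd3 reached 10 CPM in 28 of 33 Klf1-high cells (84.8%, interval 68.1 to 94.9) and in 12 of 13 Cd34-positive cells (92.3%, interval 64.0 to 99.8). A cell with none of the 3 D cyclins at 10 CPM was not seen among the 49, which allows a share of up to 6.12%.

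Ccnd2 encodes cyclin D2, and lies on chromosome 6 at 127125162 to 127152193, minus strand (GRCm38). Its lowest, median and highest levels were 6.18, 189 and 792 CPM in Klf1-high cells, against 0, 567 and 1529 CPM in Cd34-positive cells. The mean was 229 ± 200 CPM in Klf1-high and 569 ± 420 CPM in Cd34-positive cells, a log2 ratio of -1.31 that ranged from -1.42 to -1.09 when each cell was left out in turn. Below 10 CPM were cell 14 in the Klf1-high class and cell 41 in the Cd34-positive class. Cell 41 held 499 CPM of Ccnd3, near the median of its class (473 CPM).

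Ccnd3 encodes cyclin D3, which is known from mice to set the number of divisions of red cell precursors. It lies on chromosome 17 at 47505051 to 47599691, plus strand. Its lowest, median and highest levels were 0.584, 184 and 561 CPM in Klf1-high cells, against 59.4, 473 and 1335 CPM in Cd34-positive cells. Means were 219 ± 164 CPM in Klf1-high and 474 ± 372 CPM in Cd34-positive cells, a log2 ratio of -1.11 that was under 2-fold without cell 26 (-0.88) and also without cell 32. In 4 Klf1-high cells Ccnd3 was nearly absent, at 0.584 CPM in cell 50, 0.965 in cell 29, 1.24 in cell 39 and 1.39 in cell 6. These 4 cells had 58.9 to 266 CPM of Ccnd2 and 188 to 793 CPM of Mki67, so cells low in cyclin D3 still carried another D cyclin and Mki67 RNA.

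Ccnd1 encodes cyclin D1, and lies on chromosome 7 at 144929931 to 144939925, minus strand. It reached 10 CPM in 4 of 33 Klf1-high cells, namely cell 48 (178 CPM), cell 43 (41.5), cell 30 (29.3) and cell 38 (20.2). In Cd34-positive cells it did so in 2 of 13, cell 47 (232 CPM) and cell 32 (154 CPM). The means of 8.16 ± 31.9 CPM in Klf1-high and 30.3 ± 74.0 CPM in Cd34-positive cells rest on these 6 cells. The log2 ratio of -1.77 was -0.66 without cell 47. All 4 Klf1-high cells with Ccnd1 also held 24.3 to 104 CPM of the inhibitor gene Cdkn2c, which 17 of the 33 cells of that class carried at 10 CPM.

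Both kinases were found together. Cdk4 and Cdk6 each reached 10 CPM in all 33 Klf1-high and all 13 Cd34-positive cells, and neither differed 2-fold between the classes. Cdk4 lies on chromosome 10 at 127063534 to 127067920 and Cdk6 on chromosome 5 at 3341485 to 3531008, both on the plus strand. The 250 bases before the transcription start are shown for both kinases, from RefSeq on GRCm38.p6, because these were the genes carried by all cells of both classes and because the letters CACGTG (an E-box, the form bound by MYC family proteins) occur in both. Capitals mark each CACGTG. The Cdk6 window lies before the RefSeq start, which falls inside the span of the gene given above from another annotation (GENCODE).
Cdk4, chr10:127063285-127063534, plus strand: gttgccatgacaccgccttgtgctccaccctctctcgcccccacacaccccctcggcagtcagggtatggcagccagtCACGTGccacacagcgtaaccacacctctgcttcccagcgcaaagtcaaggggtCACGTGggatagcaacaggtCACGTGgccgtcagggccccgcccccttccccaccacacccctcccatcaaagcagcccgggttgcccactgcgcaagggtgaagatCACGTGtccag
Cdk6, chr5:3343643-3343892, plus strand: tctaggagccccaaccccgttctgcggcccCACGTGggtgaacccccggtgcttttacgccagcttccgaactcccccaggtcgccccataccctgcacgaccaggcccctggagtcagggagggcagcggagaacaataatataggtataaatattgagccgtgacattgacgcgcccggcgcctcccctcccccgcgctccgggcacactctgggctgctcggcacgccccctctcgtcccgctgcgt

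The Cdk4 window held 4 E-boxes and the Cdk6 window 1. The first base of each E-box lay 172, 118, 98 and 11 bases before the RefSeq start of Cdk4 and 220 bases before that of Cdk6. Of 32851 windows of the same length before other starts and these, 6.02% held at least 1 E-box and 7 windows (0.0213%) held 4 or more. The motif shown and the count of 4 follow what these windows held, so the shares are a description and no test. Entries were found for 6 of the 10 genes: Ccnd3, Cdk4, Cdk6, Cdkn1a, Cdkn1b and Cdkn2c. The E-box occurred in no window of Ccnd3, Cdkn1a, Cdkn1b or Cdkn2c. E2F motifs, searched on both strands as TTTCCCGC, TTTCGCGC, TTTGCCGC or TTTGGCGC, had no match in the windows of the 6 genes (1.86% of all windows had one). The GATA motifs AGATAA and TGATAA also had no match (16.6% of all windows). The KLF motif CCNCNCCC, which can overlap itself, matched in windows of all 6 genes and in 45.9% of all windows. These are matches of letters and say nothing of binding in these cells.

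Cdk4 levels were similar from cell to cell in the Klf1-high class. The lowest, median and highest levels were 278, 905 and 1570 CPM in Klf1-high cells, against 137, 636 and 1291 CPM in Cd34-positive cells. Means were 898 ± 258 CPM in Klf1-high and 604 ± 363 CPM in Cd34-positive cells (log2 ratio 0.57, from 0.48 to 0.71 with each cell left out). The classes overlapped widely, and 4 Cd34-positive cells (16, 26, 27 and 32) lay below every Klf1-high cell.

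Cdk6 was spread more widely among Cd34-positive cells. Its lowest, median and highest levels were 141, 774 and 1845 CPM in Klf1-high cells, against 226, 1021 and 2324 CPM in Cd34-positive cells. Means were 790 ± 324 CPM in Klf1-high and 1138 ± 795 CPM in Cd34-positive cells, a log2 ratio of -0.52. Above every Klf1-high cell lay 4 Cd34-positive cells, cell 16 (2324 CPM), cell 51 (2259), cell 41 (2204) and cell 7 (1967), and Mki67 was at 0 CPM in cells 7, 16 and 41 and at 2.81 CPM in cell 51. The lowest Cdk6 levels of the class were in cell 20 (226 CPM) and cell 21 (333 CPM), the 2 Cd34-positive cells with at least 100 CPM of Mki67. Of the 13 cells of the class, 11 had under 100 CPM of Mki67. Next lowest in Cdk6 were cells 26 (420 CPM), 33 (468) and 31 (475), with Mki67 at 0, 1.28 and 0 CPM.

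**Figure D2:**
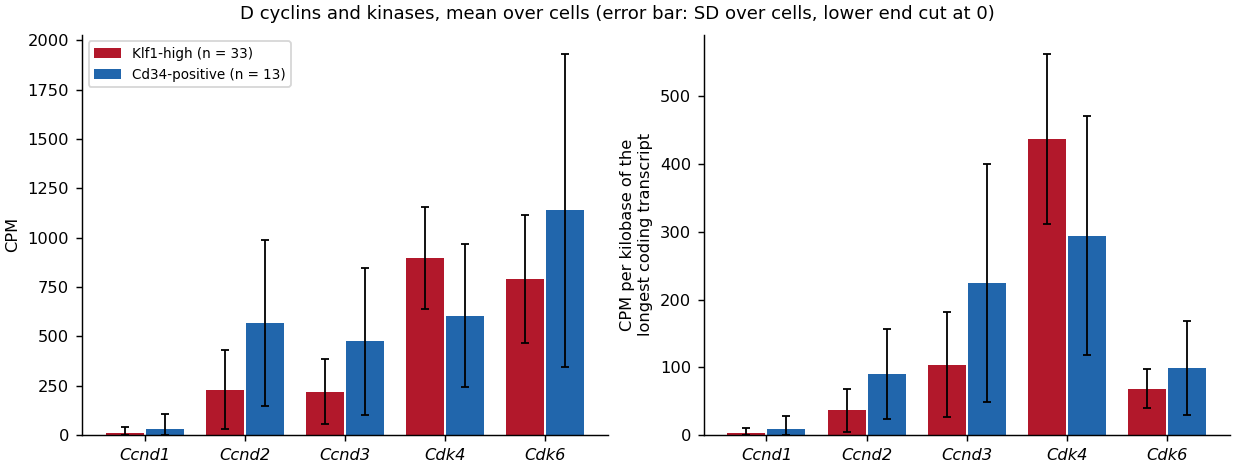
Mean level of the D cyclin and kinase genes in Klf1-high (33 cells, red) and Cd34-positive cells (13 cells, blue), in CPM (left) and in CPM per kilobase of the longest coding transcript (right), with bars of 1 SD over cells. Per kilobase Cdk4 stood at 437 in Klf1-high and 294 in Cd34-positive cells, above the other 4 genes in both classes.

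Levels of different genes were set side by side only per kilobase of transcript. By the longest coding transcript, Cdk4 stood first in Klf1-high cells (437 ± 126 CPM per kilobase), followed by Ccnd3 (104 ± 77.5), Cdk6 (68.6 ± 28.1) and Ccnd2 (36.2 ± 31.6). Cdk4 exceeded Ccnd3, and Cdk6 exceeded Ccnd2, by more than the larger SD of the pair. All other neighbours in the order differed by less, down through Cdkn2c (10.7), Cdkn1a (3.79), Rb1 (2.68), Ccnd1 (2.18), Cdkn1b (1.65) and Cdkn1c (0.957). In Cd34-positive cells the order began alike, with Cdk4 at 294 ± 177, Ccnd3 at 224 ± 176, Cdk6 at 98.7 ± 69.0 and Ccnd2 at 89.8 ± 66.4 CPM per kilobase, and no pair of neighbours differed by more than the larger SD.

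Within single cells, Ccnd3 was the D cyclin with the highest level per kilobase in 27 of 33 Klf1-high and 10 of 13 Cd34-positive cells, and Ccnd2 was so in 6 Klf1-high and 3 Cd34-positive cells. Cdk4 was the higher kinase in all 33 Klf1-high and 11 of 13 Cd34-positive cells. These choices depend on the transcript length assumed. With the median length of the coding transcripts, Ccnd3 led in 19 of 33 Klf1-high and 5 of 13 Cd34-positive cells, and Cdk4 in 12 of 33 Klf1-high and 3 of 13 Cd34-positive cells. The kinase order changes because Cdk6 measures 11525 bases by its longest coding transcript and 697 bases by the median of its coding transcripts. Which kinase and which D cyclin is the more abundant is therefore not settled here, whereas the absence of Ccnd1 as the leading D cyclin (0 of 33 Klf1-high and 0 of 13 Cd34-positive cells) held by both lengths.

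Inhibitor RNA was patchy in both classes. At 10 CPM, 9 of 33 Klf1-high cells (27.3%, interval 13.3 to 45.5) and 3 of 13 Cd34-positive cells (23.1%, interval 5.04 to 53.8) carried none of the 4 inhibitors. Exactly 1 was carried by 21 Klf1-high and 6 Cd34-positive cells, and 2 by 3 Klf1-high and 4 Cd34-positive cells. No cell carried 3 or more, which over 49 cells allows up to 6.12%. Cdkn1a or Cdkn1b reached 10 CPM in 9 of 33 Klf1-high cells (27.3%, interval 13.3 to 45.5), against 9 of 13 Cd34-positive cells (69.2%, interval 38.6 to 90.9). Split by Mki67, a proliferation marker, at 100 CPM, the count was 5 of 28 Klf1-high cells above that level (17.9%) and 4 of 5 below it (80.0%). Of the 11 Cd34-positive cells below it, 7 carried Cdkn1a or Cdkn1b (63.6%), as did both Cd34-positive cells above it. By the highest level per kilobase, the leading inhibitor was Cdkn2c in 17, Cdkn1b in 10, Cdkn1a in 3 and Cdkn1c in 1 of the 33 Klf1-high cells, with 2 cells holding no read of any. Among the 13 Cd34-positive cells it was Cdkn1b in 6, Cdkn1a in 5 and Cdkn2c in 1, and 1 cell held no read of any. These counts were the same with the median transcript length. Some of them rest on few reads: where Cdkn1b led, it was under 10 CPM in 5 of the 10 Klf1-high and 2 of the 6 Cd34-positive cells. At a common depth, a read of Cdkn1b was found in 7 of 33 Klf1-high and 8 of 13 Cd34-positive cells.

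Cdkn1a encodes p21, a target of p53, on chromosome 17 at 29090976 to 29100727, plus strand. In Klf1-high cells it reached 10 CPM in cell 39 (150 CPM), cell 38 (51.6), cell 15 (30.1) and cell 22 (28.4), and the other 29 had no read. In Cd34-positive cells it did so in cell 41 (281 CPM), cell 32 (279), cell 21 (197), cell 20 (93.3) and cell 26 (71.1), and the other 8 had no read. Every cell of the 2 classes with a read of the gene thus reached 10 CPM, although the 28.4 CPM of cell 22 rest on 4 reads. Means were 7.87 ± 27.8 CPM in Klf1-high and 70.9 ± 110 CPM in Cd34-positive cells, a log2 ratio of -3.02 (from -4.02 to -2.62 with each cell left out).

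Cdkn1b encodes p27, on chromosome 6 at 134920401 to 134925513, plus strand. A read was found in 26 of 33 Klf1-high and 11 of 13 Cd34-positive cells, mostly at a few CPM. At a common depth of 85519 reads per cell it was found in 7 of 33 Klf1-high and 8 of 13 Cd34-positive cells. It reached 10 CPM in Klf1-high cells 17 (57.5 CPM), 19 (43.9), 14 (37.1), 28 (33.7) and 45 (28.3), against Cd34-positive cells 51 (288 CPM), 31 (123), 16 (39.4), 26 (20.9) and 7 (18.8). The log2 ratio of mean levels, 7.52 ± 14.6 CPM in Klf1-high and 40.2 ± 81.6 CPM in Cd34-positive cells, was -2.28, and -1.27 without cell 51.

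Cdkn1c encodes p57, an inhibitor known for a part in keeping mouse HSCs quiescent, on chromosome 7 at 143458339 to 143461050, minus strand. It was found in 1 of 33 Klf1-high cells (cell 35, 60.0 CPM, with 575 CPM of Mki67) and in 0 of 13 Cd34-positive cells, which allows a share of up to 23.1%. Outside both classes, cell 2 held 2.14 CPM.

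Cdkn2c encodes the INK4 protein p18, on chromosome 4 at 109660876 to 109667189, minus strand. It reached 10 CPM in 17 of 33 Klf1-high cells (51.5%, interval 33.5 to 69.2), where the lowest, median and highest levels over all 33 were 0, 19.8 and 104 CPM. In Cd34-positive cells it did so in 4 of 13 (30.8%, interval 9.09 to 61.4), namely cell 32 (143 CPM), cell 51 (120), cell 27 (104) and cell 41 (82.6), and no other cell of that class had a read. Positive cells held 19.8 to 104 CPM in the Klf1-high class and 82.6 to 143 CPM in the Cd34-positive class, and means of 26.5 ± 32.8 CPM in Klf1-high and 34.6 ± 55.5 CPM in Cd34-positive cells lay within 2-fold (log2 ratio -0.37, which was 0.05 without cell 32). Compared by medians over cells, the log2 ratio was 4.38, and between means of the cells with Mki67 under 100 CPM it was -4.5. Cdkn1b and Cdkn2c were found together at 10 CPM in 0 of 33 Klf1-high cells, which allows up to 9.09%, and in cell 51 alone among the 13 Cd34-positive cells.

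Rb1, which encodes the substrate of the D cyclin kinases, lies on chromosome 14 at 73183673 to 73325822, minus strand. It reached 10 CPM in 10 of 33 Klf1-high cells (30.3%, interval 15.6 to 48.7), with the highest level in cell 28 (106 CPM), against 2 of 13 Cd34-positive cells (15.4%, interval 1.92 to 45.4), cell 51 (380 CPM) and cell 41 (51.1 CPM). Means were 12.5 ± 24.9 CPM in Klf1-high and 33.9 ± 105 CPM in Cd34-positive cells. Cell 51 alone held 86.1% of the summed level of its class, and the log2 ratio of -1.37 became 1.14 without it, so no direction can be given for Rb1.

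**Figure D3:**
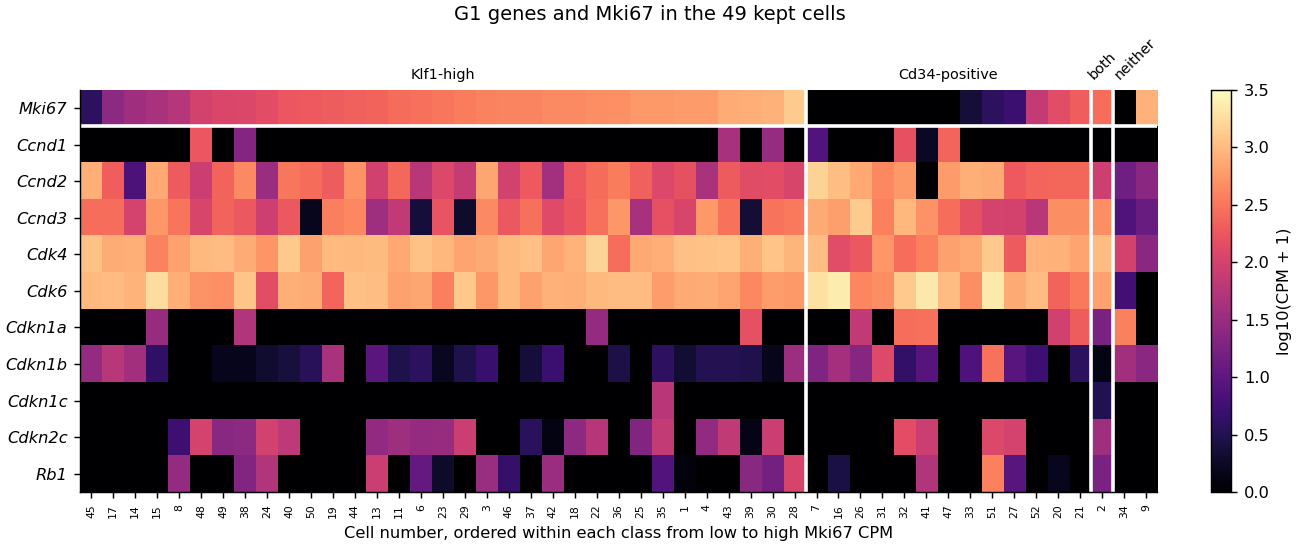
log10(CPM + 1) of Mki67 and the 10 genes (rows) in the 49 kept cells (columns), ordered within each class by Mki67. Cdk4 and Cdk6 form nearly continuous bright rows outside cells 9 and 34, and Cdkn1a, Cdkn1b, Cdkn2c and Rb1 appear in scattered cells. At 10 CPM, Cdkn2c was found together with Rb1 in 8 of the 49 cells and with Cdkn1a in 5.

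Outside the 2 classes, cell 2, with both Cd34 and Klf1, held 88.1 CPM of Ccnd2, 471 of Ccnd3, 1041 of Cdk4 and 664 of Cdk6, all inside the ranges of both classes. It carried Cdkn1a (16.2 CPM), Cdkn2c (34.9) and Rb1 (16.3). Cell 9, with both B cell and erythroid markers and 842 CPM of Mki67, had 23.4 CPM of Cdk4 and no read of Cdk6 in 85519 reads. Cell 34, with the neutrophil and monocyte markers, had 101 CPM of Cdk4, 4.97 CPM of Cdk6 and 383 CPM of Cdkn1a, the highest Cdkn1a level of the 49 cells.

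Mki67 was then used to ask which of these genes accompany cycling within 1 class. Among Klf1-high cells, 28 had at least 100 CPM of Mki67 (Mki67-high, 423 ± 278 CPM) and 5 had less (Mki67-low, cells 8, 14, 15, 17 and 45, at 32.3 ± 19.9 CPM). In all, 10 of the 49 cells lay within 2-fold of the limit. The 11 other markers of G2 and mitosis on the list, without Mki67, summed to a median of 2265 CPM in Mki67-high and 397 CPM in Mki67-low cells. Of the 9 genes compared, 3 were at least 2-fold higher in Mki67-high cells (Ccnd1, Cdkn2c and Rb1), where 16.7% of all 9250 genes were. Cdkn1b was lower, where 11.9% of all genes were, and the other 5 lay within 2-fold. With the Mki67 limit at 200 CPM (21 against 12 cells), 0 of the genes were higher, where 9.01% of all genes were. The log2 ratio of Ccnd1 was then -2.01. With 5 cells in 1 group, each of these counts can turn on a single cell.

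**Figure D4:**
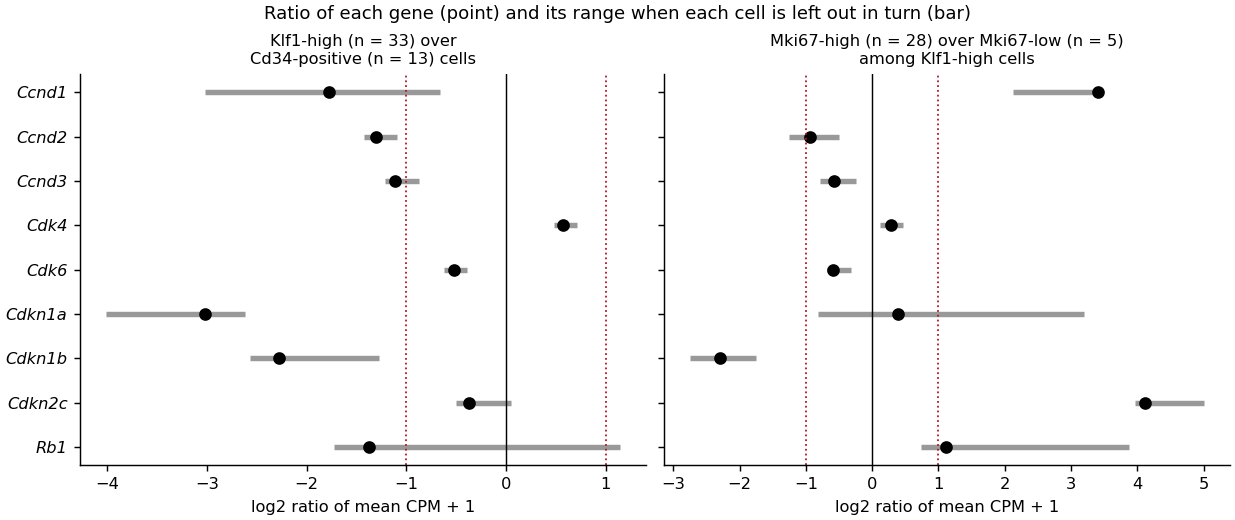
log2 ratio of mean CPM + 1 for 9 genes (points) with its range when each cell is left out in turn (bars), for Klf1-high over Cd34-positive cells (left) and for Mki67-high over Mki67-low cells among Klf1-high cells (right), with dotted lines at 2-fold. The bar of Rb1 crosses 0 on the left, from -1.73 to 1.14, and that of Cdkn1a crosses 0 on the right, from -0.83 to 3.20.

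Cdkn2c was found among Mki67-high cells. It reached 10 CPM in 17 of 28 Mki67-high cells (60.7%, interval 40.6 to 78.5), with lowest, median and highest levels of 0, 24.5 and 104 CPM. Of the 5 Mki67-low cells, cell 8 held 4.25 CPM and the others had no read. Means were 31.1 ± 33.7 CPM in Mki67-high and 0.850 ± 1.90 CPM in Mki67-low cells (log2 ratio 4.12, from 3.96 to 5.01 with each cell left out). The contrast depended on the limit: with cells split at 200 CPM of Mki67 (21 against 12 cells), the log2 ratio was 0.03. In the Cd34-positive class 11 of 13 cells had under 100 CPM of Mki67. All 4 cells with Cdkn2c were among those 11, and the 2 cells above 100 CPM had no read.

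Cdkn1b ran the other way. It reached 10 CPM in 2 of 28 Mki67-high cells (7.14%, interval 0.877 to 23.5), cells 19 and 28, and in 3 of 5 Mki67-low cells (60.0%, interval 14.7 to 94.7), cells 14, 17 and 45. The remaining Mki67-low cells held 3.13 CPM (cell 15) and no read (cell 8). Means were 4.36 ± 9.99 CPM in Mki67-high and 25.2 ± 24.1 CPM in Mki67-low cells, a log2 ratio of -2.29 that stayed between -2.75 and -1.76 with each cell left out. The groups still overlapped, since cell 28 combined 33.7 CPM of Cdkn1b with the highest Mki67 level of all cells, 1340 CPM. In Cd34-positive cells all 5 cells with Cdkn1b at 10 CPM had under 100 CPM of Mki67, as had 11 of the 13 cells of that class.

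Ccnd2, Ccnd3 and the kinases did not separate the groups. Ccnd2 averaged 201 ± 154 CPM in Mki67-high and 386 ± 353 CPM in Mki67-low cells (log2 ratio -0.94). With each cell left out the ratio ranged from -1.25 (without cell 14) to -0.50 (without cell 45). It was beyond 2-fold without any 1 of cells 3, 8, 14, 17, 38 and 44. With the Mki67 limit at 50 CPM it was -1.11, and by medians over cells -0.26. The 5 Mki67-low cells held 6.18, 194, 207, 731 and 792 CPM of Ccnd2, and so spanned the whole range of the class. Ccnd3 averaged 204 ± 162 CPM in Mki67-high and 304 ± 161 CPM in Mki67-low cells, Cdk4 averaged 923 ± 254 CPM in Mki67-high and 758 ± 267 CPM in Mki67-low cells, and Cdk6 734 ± 277 CPM in Mki67-high and 1105 ± 422 CPM in Mki67-low cells (log2 ratio -0.59). Ccnd1 was present in 4 of 28 Mki67-high cells and had no read in the 5 Mki67-low cells. Cell 48 held 66.2% of its summed level in Mki67-high cells. Rb1 averaged 13.7 ± 26.5 CPM in Mki67-high and 5.78 ± 12.9 CPM in Mki67-low cells, a log2 ratio of 1.12. With each cell left out it ranged from 0.73 (without cell 28) to 3.88 (without cell 8), and it no longer reached 2-fold without any 1 of cells 13, 14, 15, 17, 24, 28 and 45. Cdkn1a averaged 8.21 ± 29.8 CPM in Mki67-high and 6.02 ± 13.5 CPM in Mki67-low cells, and its sign turned without cell 39 (-0.83).

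**Figure D5:**
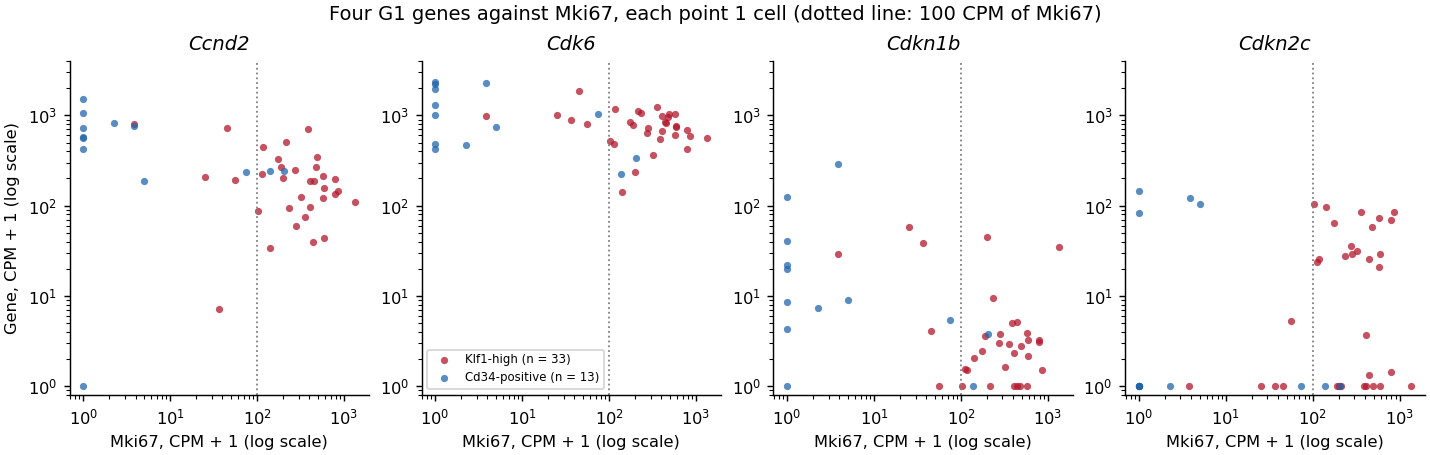
Ccnd2, Cdk6, Cdkn1b and Cdkn2c (vertical axes, CPM + 1, log scale) against Mki67 (horizontal axes, CPM + 1, log scale) in 33 Klf1-high (red) and 13 Cd34-positive cells (blue), with a dotted line at 100 CPM of Mki67. Cdkn2c at 10 CPM or more lies right of the line in all 17 Klf1-high cells that have it. It lies left of the line in all 4 Cd34-positive cells that have it, where 11 of the 13 cells of that class lie.

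Rank correlations with Mki67 are given as a description, since all points share the depth of their library. Over 49 cells Spearman's rho with Mki67 was -0.42 for Ccnd2, -0.38 for Cdkn1b and 0.37 for Cdk4, and between -0.25 and 0.17 for the other 7 genes. Total reads correlated with Mki67 at 0.35 and with Cdk4 at 0.37. Within the 33 Klf1-high cells rho lay between -0.24 (Ccnd2) and 0.24 (Rb1), with Cdkn1b at -0.13 and Cdkn2c at 0.16. Against the mean of the 11 other G2 and mitosis markers in the same cells, Cdkn2c stood at 0.42 and Ccnd2 at -0.31. Within the 13 Cd34-positive cells, Cdkn2c stood at -0.47 and Ccnd2 at 0.19 with these markers. There rho with Mki67, which had a read in 6 of the 13, lay between -0.57 (Ccnd1 and Ccnd3) and 0.45 (Cdk4). Between the 10 genes themselves, Ccnd2 and Ccnd3 had a rho of 0.44 over 49 cells and 0.43 over the Klf1-high cells, and in Klf1-high cells Ccnd1 and Cdkn2c had 0.43 and Cdkn1b and Cdkn2c -0.37.

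The rest of the G1 network was read from a list of 35 other genes, cyclins E and A, their kinases, the E2F and RB families and their regulators. Of the 31 compared, 11 were at least 2-fold higher in Klf1-high than in Cd34-positive cells, 5 were lower and 15 lay within 2-fold, where 20.6% of all genes were higher and 24.2% lower, with a median log2 ratio of 0.68. Highest were the repressor E2f8 (131 ± 131 CPM in Klf1-high and 3.23 ± 10.7 CPM in Cd34-positive cells, log2 ratio 4.96) and the genes of cyclin E, which acts with CDK2 after the D cyclins. Ccne1 averaged 124 ± 139 CPM in Klf1-high and 3.71 ± 10.8 CPM in Cd34-positive cells (4.73), and Ccne2 26.5 ± 45.8 CPM in Klf1-high and 0.527 ± 1.40 CPM in Cd34-positive cells (4.17). At 10 CPM, Ccne1 was found in 22 of 33 Klf1-high and 1 of 13 Cd34-positive cells. While the D cyclin genes Ccnd2 and Ccnd3 were lower in Klf1-high cells, both cyclin E genes were higher.

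Lowest were Mycn (15.5 ± 62.9 CPM in Klf1-high and 193 ± 294 CPM in Cd34-positive cells, log2 ratio -3.55), which is also on the HSC list, and the INK4 gene Cdkn2d (14.4 ± 34.4 CPM in Klf1-high and 105 ± 119 CPM in Cd34-positive cells, -2.78). Next was the RB relative Rbl2, known for its part in quiescence, which reached 10 CPM in 13 of 33 Klf1-high and 7 of 13 Cd34-positive cells (log2 ratio of means -2.19). Its relative Rbl1 lay within 2-fold (53.8 ± 45.6 CPM in Klf1-high and 42.5 ± 66.3 CPM in Cd34-positive cells, 0.33). The activator E2f1 was lower by its mean, 26.9 ± 44.9 CPM in Klf1-high and 76.1 ± 159 CPM in Cd34-positive cells (-1.47), yet reached 10 CPM in 17 of 33 Klf1-high and 4 of 13 Cd34-positive cells. E2f2 was found in 9 of 33 Klf1-high cells (at 10 CPM in 3) and had no read in the 13 Cd34-positive cells. Cell 36 held 72.6% of its summed level in Klf1-high cells. The INK4 genes Cdkn2a and Cdkn2b had no read in either class.

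Within Klf1-high cells, 4 of the 31 network genes were at least 2-fold higher in Mki67-high cells and 4 lower, near the shares of all genes. The higher ones were Lin9, E2f2, Ccna2 and Cks1b and the lower ones E2f1, Cdk2, Cdkn2d and Mycn, named here after their values were seen. Several rest on single cells. In Mki67-low cells, cell 15 held 99.7% of the summed level of Mycn and 90.2% of Cdkn2d, and cell 17 held 75.9% of E2f1. In Mki67-high cells, cell 36 held 72.6% of E2f2. Cdk2 reached 10 CPM in all 5 Mki67-low cells. Ccna2, the cyclin A gene of S and G2 phase, had medians of 367 CPM in Mki67-high and 53.0 CPM in Mki67-low cells (log2 ratio of means 2.77). Ccne1 did not separate the groups, at 125 ± 146 CPM in Mki67-high and 120 ± 106 CPM in Mki67-low cells.

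Genes whose levels ran most like those of each G1 gene were ranked by Spearman correlation over the 49 cells among 9158 genes, for the 8 genes with 10 CPM in at least 10 cells. The closest to Ccnd2 was Aldh2 (0.65), a mitochondrial aldehyde dehydrogenase, followed by Dcun1d1 and Klk8. For Ccnd3 the list was Fmnl1 (0.56), Igfbp4 and Tbc1d10c. For Cdk4 it was Chpf2 (0.70), Rpusd2 and Eif3b, and for Cdk6 it was Slc22a3 (0.65), an organic cation transporter, Zmiz1 and Icam2. Cdkn1a ran with Fes (0.59), Ptgs1 and Flot2, and Cdkn1b with 9930111J21Rik2 (0.54), Rpl9 and Cd300a. Cdkn2c ran with Rnf26 (0.59), Ftsj1 and Hnrnpa1, and Rb1 with Cdc25c (0.57), a phosphatase that activates CDK1 at entry into mitosis, Zfp873 and Gm5148. Within Klf1-high cells the correlations of these leading genes were between 0.33 and 0.69, with Slc22a3 at 0.64 and Cdc25c at 0.69.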

How the data were processed

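Smart-seq2 libraries of 52 single cells were analysed from 1 table. The authors deposited estimated counts (expected counts, 4.23% of values not whole) for 28786 Ensembl genes. Per the submitters' processing notes, the tools were Trim Galore (0.5.0) and Salmon (0.03.1) and the build was GRCm38. Strand handling is not given in the sources used here. Estimated counts share reads of overlapping or near-identical genes (Rpl9 and Hnrnpa1 have such copies) by a model.

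Counts were rounded and divided by each cell's total (CPM). Cells needed 50000 reads, 1000 genes and at most 20% mitochondrial reads. Cell 5 had 28.3% mitochondrial reads, and cells 10 and 12 had 39692 and 32439 reads. Symbols, coordinates and transcript lengths came from GENCODE M21, where 27728 identifiers (96.3%) had a symbol. Python 3.11.15, numpy 2.4.6, pandas 2.3.3, scipy 1.17.1 and matplotlib 3.10.9 were used, and the ratio was checked on simulated data.

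A gene was compared at a mean of 5 CPM over both groups, and called past 2-fold on mean CPM + 1. Shares carry exact Clopper-Pearson 95% intervals, and a count of 0 allows 3 counts. Both cover only the error of counting cells, taken as independent draws from 1 sample, and no difference between animals. Amplified reads carry no molecular identifier and are not separate molecules. No doublet caller was run on so few wells. The 10 genes and all lists were chosen with earlier results of these data known. Named were the 10 genes, the 3 highest and 3 lowest network genes with Ccne1, Ccne2, E2f1, E2f2, Rbl1 and Rbl2, and the 3 most correlated genes of each.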

Additional observations from a re-analysis of the deposited data

Results flagged for a closer look

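The 3 libraries left out for quality, which no comparison used, also held reads of the 10 genes. Cell 5, with 28.3% mitochondrial reads, had 499 such reads, of which 400 were of Cdk4, 55 of Ccnd2, 38 of Cdk6 and 6 of Ccnd3. Cell 12 had 27 and cell 10 had 6. Cell 5 carried Cdk4 at 1302 CPM and Mki67 at 1260 CPM, and no inhibitor read was found in any of the 3.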

How the results depend on the processing

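With 1 sample and no animals, no value here has a replicate, and the second comparison has 5 Mki67-low cells. The main alternatives were listed with earlier results known, and the restriction to Mki67-low cells and the removal of cells under 200000 reads were chosen after seeing the data. Cdk4 and Cdk6 kept their direction and stayed within 2-fold under every alternative run in both comparisons. Between the classes, medians over cells gave 1 gene higher and 3 lower, with Cdkn2c at 4.38, where 42.5% of all genes were higher and 8.69% lower. Leaving out each cell gave 0 to 1 higher, with Rb1 between -1.73 and 1.14 (1.14 without cell 51), and 5 to 6 lower. Scaling by median-of-ratios size factors moved the median log2 ratio of all genes to -0.24, and relative to that shift the direction of no compared gene changed. Among Klf1-high cells, the count higher in Mki67-high cells was 0 with the limit at 200 CPM and over all kept cells, 1 with a pseudocount of 10 CPM and by medians, 4 at a common depth (with Cdkn1a at 1.20), and 2 to 3 with each cell left out. The count lower was 2 with the limit at 50 or 200 CPM and at a common depth, 5 over all kept cells, and 1 to 2 with each cell left out. Ccnd1 turned to -2.01 with the limit at 200 CPM. Over all kept cells, where class and Mki67 cannot be told apart, Ccnd1 was -1.36, Cdkn1a -1.81 and Rb1 -1.08. At a common depth Cdkn1b was found in 7 and Rb1 in 8 of 33 Klf1-high cells, since fewer reads were drawn. With median transcript lengths Ccnd2 led the D cyclins in 14 of 33 Klf1-high and 8 of 13 Cd34-positive cells and Ccnd3 in 19 and 5, and Cdk4 led the kinases in 12 and 3 and Cdk6 in 21 and 10. The cause of the other changes was not tested. No paired analysis was possible because the cells form 1 group with no pairing between classes.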
